A study of Mus musculus with 6 samples.

Results

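Cells of the fetal lung can make cholesterol from acetyl-CoA, and 8 genes of that route are described here in whole fetal mouse lung at E18.5, late gestation. They are Srebf2, Insig1, Hmgcs1, Idi1, Fdft1, Sqle, Lss and Cyp51, taken by symbol from the deposited table. Each symbol stands on 1 row, so the set is 8 of 55359 genes in the table, and all 8 had enough counts to be tested. The study set 3 lungs with a wild type genotype label against 3 lungs labelled Prmt5 knockdown, all of strain C57 and read by poly(A) RNA-seq. Per the series text the aim was loss of Prmt5, a protein arginine methyltransferase, in the mesenchyme through Dermo1, a synonym of Twist2, whereas the sample labels give the genotype as a knockdown. The growth text, given alike for all 6 samples, speaks of pregnant C57 mice with that knockdown in lung mesenchymal cells. Neither the allele nor the litter of an embryo is given in the labels used here, so the p-values measure the spread between these lungs, which may in part be technical. The RNA came from the whole organ, in which any manipulated mesenchyme is mixed with epithelium, endothelium and blood. In such RNA fewer cells of a type and less transcript per cell cannot be told apart.

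Cholesterol synthesis is controlled by a feedback loop in the endoplasmic reticulum. SREBP-2, the product of Srebf2, is held there with its escort SCAP by INSIG proteins while sterols are plentiful, and when sterols fall it is carried to the Golgi, cut by site-1 and site-2 proteases and moved to the nucleus. There it activates genes with sterol regulatory elements in their promoters, among them nearly every enzyme of the route and Srebf2 and Insig1 themselves. In the lung before birth cholesterol is needed for new membranes and is part of the surfactant that alveolar type 2 cells store in lamellar bodies.

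The promoter windows of 3 of the enzyme genes and of the regulator gene Srebf2 are shown. The transcripts of these 3 enzyme genes varied together from lung to lung and Srebf2 did not follow them. Whether the letters of the windows bear on that was not tested. The windows of Insig1 and Idi1 were searched in the same way and are not shown. RefSeq windows on GRCm38.p6, 250 bases before to 50 after the annotated start, were found for 6 of the 8 genes: Srebf2, Insig1, Hmgcs1, Idi1, Lss and Cyp51. Each is written 5′ to 3′ along the gene. Capitals mark matches, on either strand, to the sterol regulatory element TCACNCCAC, to its looser form TCACNNCA, to the CCAAT box bound by NF-Y and to the GC box GGGCGG bound by Sp1. The looser form overlaps the first 8 letters of the strict one and was added after the windows had been read.
Hmgcs1, chr13:119690101-119690400, plus strand: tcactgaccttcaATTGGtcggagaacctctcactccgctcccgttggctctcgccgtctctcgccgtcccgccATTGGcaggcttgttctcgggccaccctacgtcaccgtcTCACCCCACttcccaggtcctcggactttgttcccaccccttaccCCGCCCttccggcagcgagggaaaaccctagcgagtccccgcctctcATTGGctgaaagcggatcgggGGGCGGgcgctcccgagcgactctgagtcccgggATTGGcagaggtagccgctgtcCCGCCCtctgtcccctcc
Cyp51, chr5:4104648-4104947, minus strand: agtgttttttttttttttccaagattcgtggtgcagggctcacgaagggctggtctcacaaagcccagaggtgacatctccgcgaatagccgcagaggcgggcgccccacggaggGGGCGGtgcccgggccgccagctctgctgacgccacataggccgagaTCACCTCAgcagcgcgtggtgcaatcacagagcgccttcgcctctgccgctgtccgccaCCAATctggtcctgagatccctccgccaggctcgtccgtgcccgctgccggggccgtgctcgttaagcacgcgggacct
Lss, chr10:76531355-76531654, plus strand: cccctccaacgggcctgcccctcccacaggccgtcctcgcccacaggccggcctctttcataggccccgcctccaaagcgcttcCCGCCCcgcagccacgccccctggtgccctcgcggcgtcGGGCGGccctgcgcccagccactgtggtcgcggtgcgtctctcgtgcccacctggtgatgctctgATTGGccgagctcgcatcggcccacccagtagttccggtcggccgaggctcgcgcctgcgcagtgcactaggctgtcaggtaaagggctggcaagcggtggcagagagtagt
Srebf2, chr15:82147019-82147318, plus strand: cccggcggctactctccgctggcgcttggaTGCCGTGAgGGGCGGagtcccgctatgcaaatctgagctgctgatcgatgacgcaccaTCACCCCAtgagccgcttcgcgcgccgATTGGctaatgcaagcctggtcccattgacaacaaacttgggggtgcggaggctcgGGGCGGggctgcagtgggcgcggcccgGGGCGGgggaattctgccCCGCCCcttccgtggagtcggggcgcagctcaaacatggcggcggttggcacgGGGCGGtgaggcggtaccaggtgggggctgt

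Of the 6 windows only that of Hmgcs1 held the strict element, TCACCCCAC, beginning 137 bases before the start, against 1.24% of 32851 promoter windows searched. The looser form was also found in Srebf2 (TCACCCCA, 162 bases before the start, and TGCCGTGA on the other strand, 220 bases before it) and in Cyp51 (TCACCTCA, 88 bases before it). That makes 3 of 6 windows with the looser form, beside 13.8% of all windows. A CCAAT box was in 6 of 6 and in 37.4% of all windows, and a GC box was in 6 of 6 and in 35.7% of all. Both boxes together were in 6 of 6 windows and in 12.8% of all. Among 12 other enzymes of the route with a window the counts were 0 for the strict element, 6 for the looser one, 11 for CCAAT and 11 for the GC box. These are matches of letters only. The windows searched as background were neither limited to expressed genes nor matched for base content, so the shares are not specific to this route.

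The 8 genes fell into a high and a low tier of transcript level. The deposited table gives levels as FPKM, fragments scaled by exonic length and by the total of the library, a scale on which genes can be set beside each other. In wild type lungs Insig1, the sterol-dependent brake, was highest with 38.7 ± 4.63 FPKM (SD, n = 3), then Hmgcs1, the enzyme that forms HMG-CoA, with 32.5 ± 4.08 FPKM, and Srebf2 with 28.8 ± 2.32 FPKM. These means lay above those of 93.7%, 92.1% and 90.7% of all genes tested. The wild type ranges of neighbours within this tier overlapped. After a 2.53-fold step came Fdft1, squalene synthase, with 11.4 ± 1.00 FPKM. Cyp51, which demethylates lanosterol, had 7.11 ± 1.81 FPKM and Sqle, squalene epoxidase, 6.65 ± 1.18 FPKM, and their ranges overlapped. Lss, which closes squalene epoxide to lanosterol, had 4.04 ± 0.728 FPKM and Idi1, isopentenyl diphosphate isomerase, 2.52 ± 0.376 FPKM, above 44.7% and 33.9% of the genes tested. The ranges of Srebf2 and Fdft1, of Fdft1 and Cyp51, of Sqle and Lss and of Lss and Idi1 did not overlap in wild type. The order of the 8 means was the same in the knockdown-labelled lungs, from 39.5 ± 8.82 FPKM for Insig1 to 2.08 ± 0.217 FPKM for Idi1. The exonic length counts every annotated exon, 10787 bases for Lss against 3093 for Insig1, so genes with long, rarely used exons are understated on this scale.

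**Figure D1:**
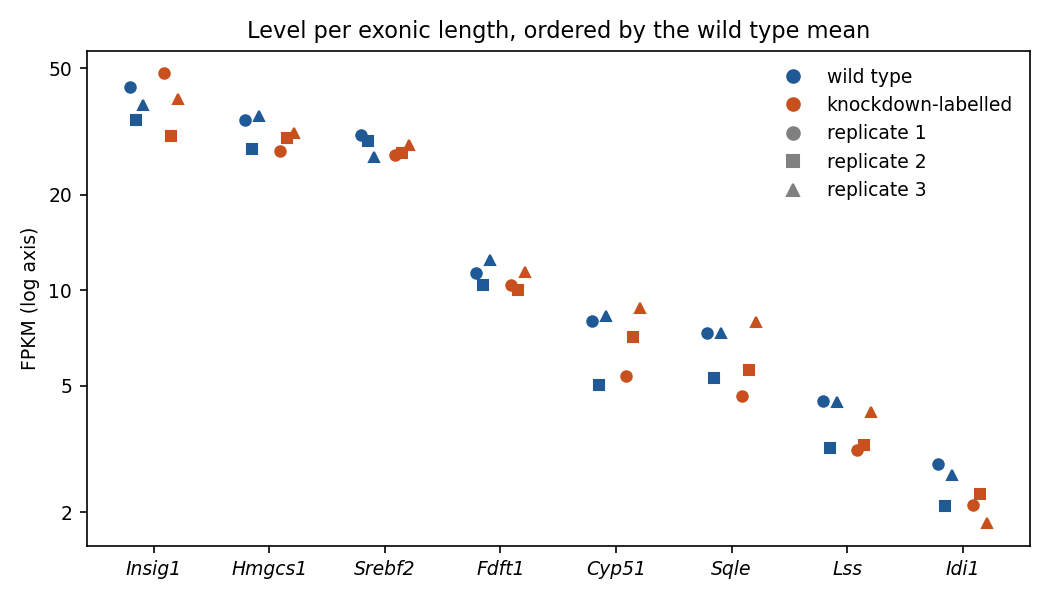
Deposited FPKM of the 8 genes (vertical log axis) in each lung, ordered from left to right by the wild type mean, with blue for wild type, orange for knockdown-labelled and the marker for the replicate. Insig1, Hmgcs1 and Srebf2 sit between 26.3 and 48.1 FPKM in all 6 lungs and the other 5 genes between 1.85 and 12.4.

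The comparison of the groups asks whether the transcripts of the route differ between wild type and knockdown-labelled fetal lungs. None of the 8 genes passed the test, and in each of them the ranges of the groups overlapped. Of the 8, 7 had negative log2 fold changes in the knockdown-labelled lungs, beside 8353 of all 17728 genes tested. Cyp51, counted among the 7, was as near to level (-0.01) as Insig1 (0.02). The median log2 fold change of the 8 was -0.13 beside 0.01 over all 17728 genes tested. At an adjusted p under 0.05 edgeR's quasi-likelihood test called 0 of 8, where 6 of 17728 genes (0.0338%) were called in all. At an unadjusted p under 0.05 the count was again 0 of 8, beside 17.0% of all genes, and DESeq2 called 0 of 8, beside 4.82% of all. Groups that did not overlap were met in 0 of 8 genes and in 23.2% of all genes. The label check bears on how these values are read: the wild type lungs had 46.6, 47.1 and 48.1 CPM of Prmt5 and those labelled as knockdown 39.4, 47.6 and 46.7 CPM (log2 fold change -0.08, interval -0.29 to 0.13, edgeR adjusted p = 0.682). Because the targeted transcript was not shown to be lower, directions rest on the labels alone. Values below are CPM, counts scaled to a common library total with TMM factors, with replicates 1, 2 and 3 in that order.

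Srebf2 (ENSMUSG00000022463, chromosome 15, 82031382 to 82089580 in the coordinates of the table, whose build is not named) encodes the transcription factor of the route. It had 223, 214 and 187 CPM in wild type and 190, 197 and 202 CPM in the knockdown-labelled lungs. The groups overlapped, and wild type replicate 3 was the lowest of the 6 lungs. The log2 fold change of -0.08 had a standard error of 0.08 (95% confidence interval -0.28 to 0.11, edgeR adjusted p = 0.658), so that ratios from 0.823 to 1.08 lie within the interval. The microRNA gene Mir33, which lies inside Srebf2, had 1 count over the 6 libraries, and mature microRNAs are not captured by poly(A) selection.

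Insig1 (ENSMUSG00000045294, chromosome 5, 28276361 to 28283660) had 136, 107 and 118 CPM in wild type and 147, 95.7 and 121 CPM in the knockdown-labelled lungs. Both the highest and the lowest value were in knockdown-labelled lungs, replicates 1 and 2. Mean levels of 120 ± 14.3 and 122 ± 25.9 CPM (SD over 3 lungs) gave a log2 fold change of 0.02, and its interval ran from -0.37 to 0.40 (edgeR adjusted p = 0.975). The sign turned, to -0.14, when knockdown-labelled replicate 1 was left out, and with the heart muscle level as a covariate the value was 0.31 (edgeR adjusted p = 0.773). By Xist and Ddx3y, wild type replicate 1 and knockdown-labelled replicates 1 and 3 read as male and the rest as female. Sex was thus not balanced between the groups. Lungs read as male had 136, 147 and 121 CPM of Insig1 and those read as female 107, 118 and 95.7 CPM. That split was made after the values were seen, and a sex difference was not tested.

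The first enzymes of the route lead from acetyl-CoA to the branched isoprenoid units. Hmgcs1 (ENSMUSG00000093930, chromosome 13, 120151915 to 120169796) had 159, 129 and 161 CPM in wild type and 125, 141 and 141 CPM in the knockdown-labelled lungs. Knockdown-labelled replicates 2 and 3 lay inside the wild type range and replicate 1 just under it. The log2 fold change was -0.14 with an interval from -0.39 to 0.10 (edgeR adjusted p = 0.540). Idi1 (ENSMUSG00000058258, chromosome 13, 8935537 to 8942487), with 106 to 162 counts in a library the most thinly covered of the 8, had 9.98, 7.46 and 9.13 CPM against 7.32, 8.11 and 6.38 CPM. Its log2 fold change of -0.29 was the most negative of the 8 (interval -0.70 to 0.13, edgeR adjusted p = 0.454), with 2 of 3 knockdown-labelled lungs below every wild type lung.

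Fdft1 (ENSMUSG00000021273, chromosome 14, 63382599 to 63417027) joins farnesyl units into squalene, the step that commits carbon to sterols. It had 47.0, 43.3 and 50.7 CPM in wild type and 42.3, 41.7 and 46.3 CPM in the knockdown-labelled lungs. Knockdown-labelled replicate 3 lay within the wild type range and the other 2 just under it. Between the groups Fdft1 had a log2 fold change of -0.11 with an interval from -0.32 to 0.09 (edgeR adjusted p = 0.553). The 3′ end of Fdft1 overlaps that of Ctsb on the opposite strand in the table's coordinates, that of Cyp51 overlaps Akap9 in the same way, and whether the counting used strand is not given in the sources used here, so reads of these overlaps may be shared.

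Among the 8 genes Sqle and Cyp51 varied most between lungs of the same group, with within-group SDs of 0.33 and 0.37 on the log2 scale. Sqle (ENSMUSG00000022351, chromosome 15, 59186926 to 59203041), an oxygenase and a control point of the sterol part of the route, had 40.8, 29.6 and 40.5 CPM in wild type and 25.5, 31.7 and 43.4 CPM in the knockdown-labelled lungs. Both its lowest and its highest lung were knockdown-labelled, replicates 1 and 3, a 1.70-fold span. Between the groups the log2 fold change was -0.14 with an interval from -0.64 to 0.36 (edgeR adjusted p = 0.794), and 0.03 when knockdown-labelled replicate 1 was left out.

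Lss (ENSMUSG00000033105, chromosome 10, 76367422 to 76392972) had 48.6, 34.9 and 47.7 CPM in wild type and 33.5, 35.6 and 44.1 CPM in the knockdown-labelled lungs. Wild type replicate 2 was on the level of the 2 lower knockdown-labelled lungs. For Lss the log2 fold change was -0.21 with an interval from -0.59 to 0.16 (edgeR adjusted p = 0.550). When wild type replicate 2 was left out it was -0.35, and Lss and Hmgcs1 then had unadjusted p of 0.038 each (edgeR adjusted p = 0.421 for both).

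Cyp51 (ENSMUSG00000001467, chromosome 5, 4131145 to 4154746), the first enzyme after lanosterol, had 35.7, 22.4 and 36.3 CPM in wild type and 23.4, 31.9 and 38.1 CPM in the knockdown-labelled lungs. The lowest lung was wild type and the highest knockdown-labelled. Mean levels were 31.5 ± 7.83 and 31.2 ± 7.38 CPM (SD over 3 lungs). The log2 fold change of -0.01 had the widest interval of the 8, -0.57 to 0.54 (edgeR adjusted p = 0.985), so that neither a ratio of 0.674 nor one of 1.45 is outside it.

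**Figure D2:**
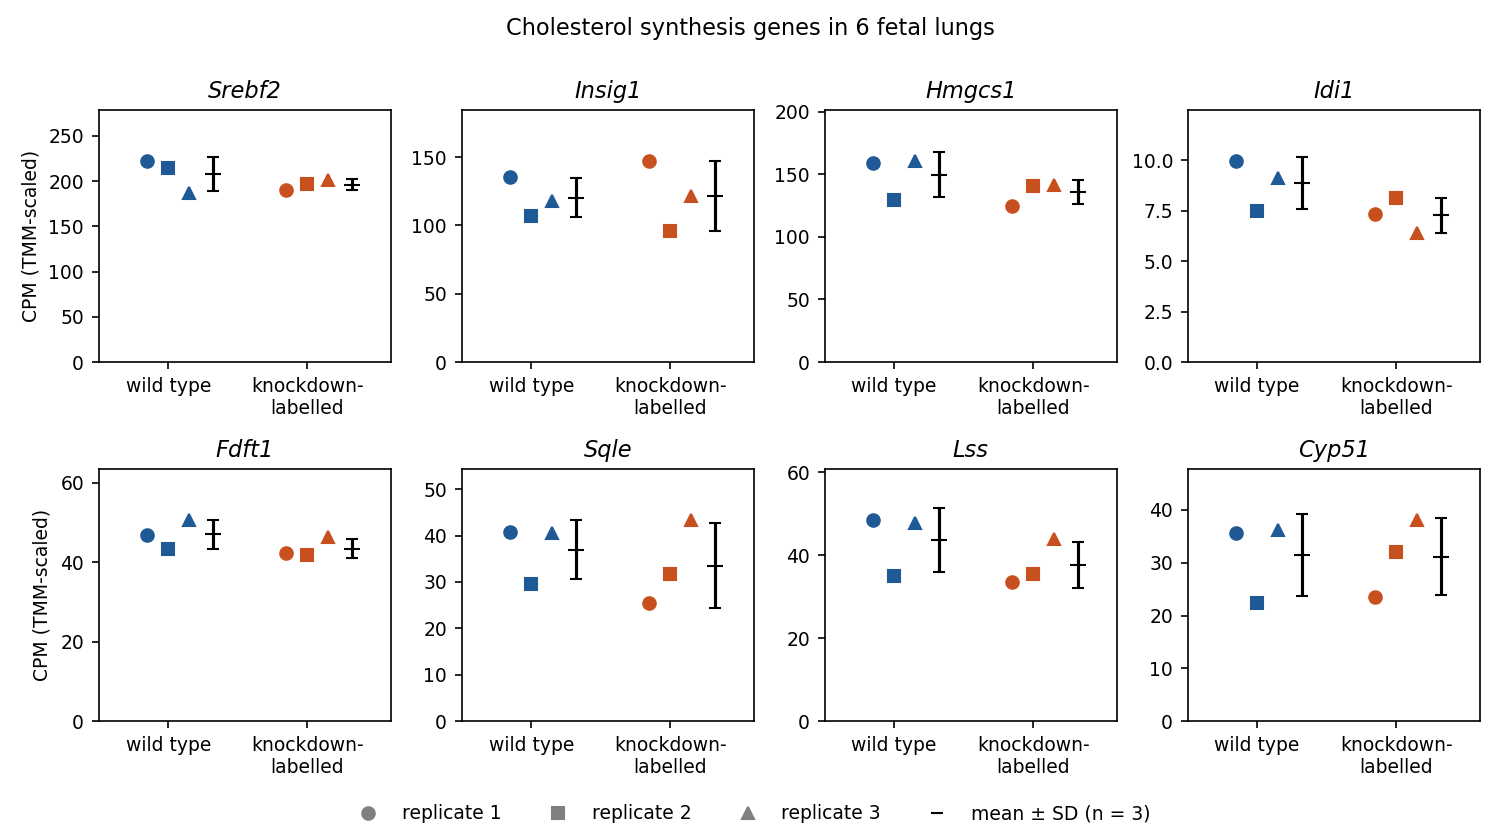
CPM after TMM scaling (vertical axes from 0, scaled for each gene) of the 8 genes in the 3 wild type (blue) and 3 knockdown-labelled (orange) lungs, with the marker for the replicate and the mean ± SD in black. In every panel the ranges of the groups overlap, and Sqle, Lss and Cyp51 are low in wild type replicate 2 and knockdown-labelled replicate 1.

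The enzymes moved together from lung to lung, in an order that cut across the groups. Taking each value as the log2 CPM minus the gene's mean over the 6 lungs, the mean of the 6 enzymes Hmgcs1, Idi1, Fdft1, Sqle, Lss and Cyp51 stood at 0.21, -0.19 and 0.21 in the wild type lungs and, for those labelled as knockdown, at -0.25, -0.06 and 0.08. The difference between the group means was -0.15, smaller than the range of 0.41 inside wild type and of 0.33 inside the knockdown-labelled group. Wild type replicate 2 and knockdown-labelled replicate 1 were the 2 lowest lungs for Hmgcs1, Sqle, Lss and Cyp51, and Cyp51 reached -0.45 and -0.39 there. In all, that pair of lungs, singled out after these values were seen, was lowest for 4 of the 8 genes, which is a description only. It was also lowest for 7 of the 15 other enzymes and for 7.47% of all genes tested.

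Pairs of genes gave the same picture, as a description over 6 libraries that share their scaling. Among Hmgcs1, Fdft1, Sqle, Lss and Cyp51, a grouping made after seeing the values, Pearson's r of log2 CPM was 0.668 to 0.931 over 10 pairs, and 0.756 to 0.961 for deviations from the group means. Idi1 followed these 5 less closely, with 0.249 to 0.717, and 0.084 to 0.592 within groups. The 13 pairs with Srebf2 or Insig1 had values from -0.065 to 0.233, and from -0.435 to 0.251 within groups. The level of the Srebf2 transcript did not order the lungs as the enzymes did, and the activity of SREBP-2, which is set by cleavage of the protein, was not measured. The median within-group SD was 0.22 on the log2 scale for the 8 genes and 0.18 for all genes tested, from 0.10 for Srebf2 and Fdft1 to 0.37 for Cyp51.

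**Figure D3:**
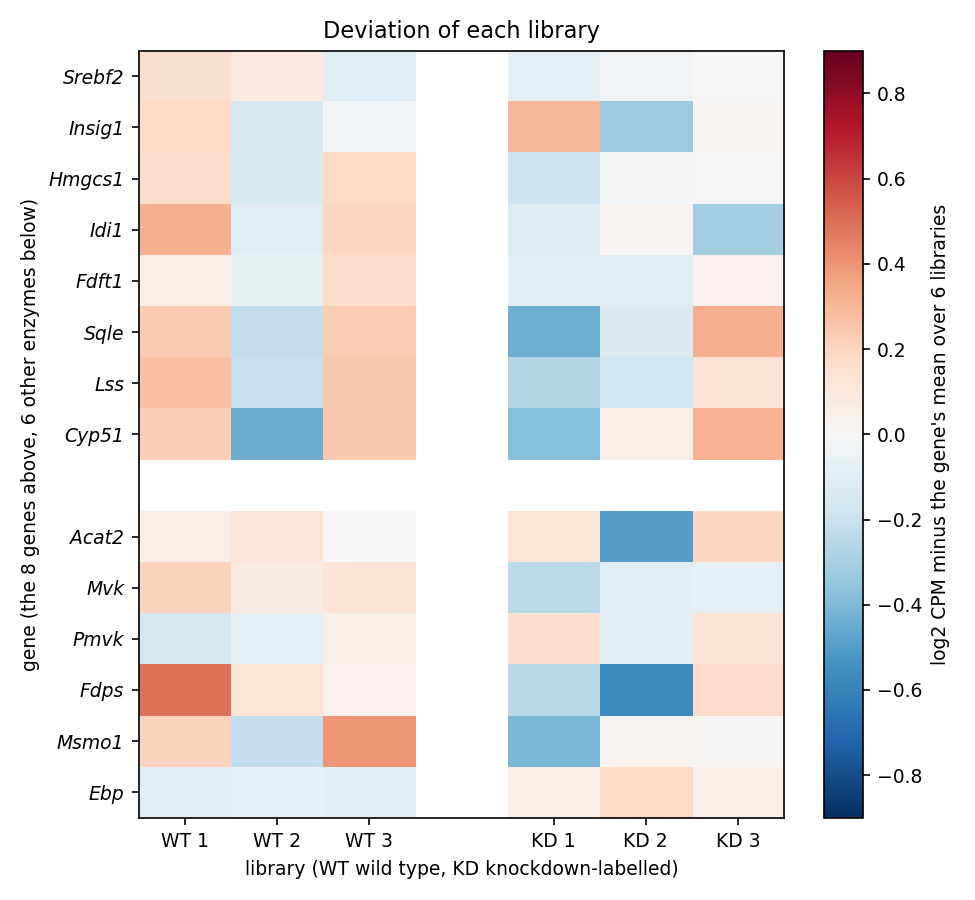
Log2 CPM minus the mean of the gene over 6 libraries (colour, red above and blue below that mean) for the 8 genes (upper block) and 6 other enzymes of cholesterol synthesis named in the text (lower block) in each lung (columns). Hmgcs1, Sqle, Lss and Cyp51 are blue in wild type replicate 2 and knockdown-labelled replicate 1 and red or pale in wild type replicates 1 and 3 and knockdown-labelled replicate 3.

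The mean of the rest of the route, though not each enzyme, had the same lung-to-lung order. On the same centred scale the mean of the 15 other synthesis enzymes was 0.15, -0.14 and 0.12 for wild type, then -0.16, -0.05 and 0.09 for the knockdown-labelled replicates, and its r with the 6 enzymes was 0.99 over the 6 lungs. Msmo1, the sterol demethylase step after Cyp51, was at -0.22 in wild type replicate 2 and -0.41 in knockdown-labelled replicate 1. Of the 15, 8 did not have these lungs as their lowest pair, among them Mvk, Fdps, Ebp, Acat2 and Pmvk. Acat2 and Pmvk, enzymes at the entry of the route, had 0.12 and -0.09 in wild type replicate 2 and 0.12 and 0.15 in knockdown-labelled replicate 1. Of the 15, 10 had negative and 5 positive log2 fold changes (median -0.09), 0 were called by edgeR and 2 had an unadjusted p under 0.05, both lower, beside 8.52% of all genes that were lower at that threshold. Mvk, mevalonate kinase, had the smallest p of the list (18.1 ± 0.836 against 14.9 ± 0.912 CPM, edgeR adjusted p = 0.241). Other genes with small p in the list were Ebp, a sterol isomerase, with a positive log2 fold change of 0.18 (edgeR adjusted p = 0.365), and Fdps, farnesyl diphosphate synthase, with 17.5 ± 3.08 against 13.1 ± 3.44 CPM (edgeR adjusted p = 0.384). In Mvk and Ebp, 2 of the 15, the groups did not overlap, beside 23.2% of all genes.

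Of 8 genes of sterol sensing and SREBP cleavage 0 were called, and the median log2 fold change was -0.05. Scap, the escort of SREBP-2, had 43.1 ± 1.92 against 42.0 ± 6.11 CPM, and Insig2, the second brake, 40.6 ± 3.96 against 40.4 ± 1.94 CPM. Mbtps1, the site-1 protease, had 247 ± 11.7 against 229 ± 8.90 CPM without overlap (edgeR adjusted p = 0.470). Rnf139, a ubiquitin ligase of the endoplasmic reticulum, had 37.0 ± 0.804 against 30.1 ± 3.23 CPM without overlap (edgeR adjusted p = 0.203). It was the 1 gene of this list with an unadjusted p under 0.05, beside 17.0% of all genes. Lower without overlap were 2 of the 8, beside 12.4% of all genes.

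Outside the enzymes, Stard4, a known target of SREBP-2 that moves cholesterol between membranes, stood lower in every knockdown-labelled lung. It had 127, 106 and 118 CPM in wild type and 77.6, 79.6 and 80.8 CPM in the knockdown-labelled lungs. The log2 fold change of -0.56 (standard error 0.08, 95% confidence interval -0.76 to -0.37) missed the threshold over all genes (edgeR adjusted p = 0.0805), while DESeq2 called it (adjusted p = 1.29e-05). Over all alternatives its adjusted p ran from 1.29e-05 to 0.673 and its log2 fold change from -0.63 to -0.50. Of 10 tested genes of uptake and transport 0 were called by edgeR and 2 had an unadjusted p under 0.05, beside 17.0% of all genes. DESeq2 called 2 of them, beside 4.82% of all genes, with Stard4 among the 2 each time. Lower without overlap were 2 of 10, beside 12.4% of all genes. Whether Stard4 differed more than the enzymes was not tested.

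**Figure D4:**
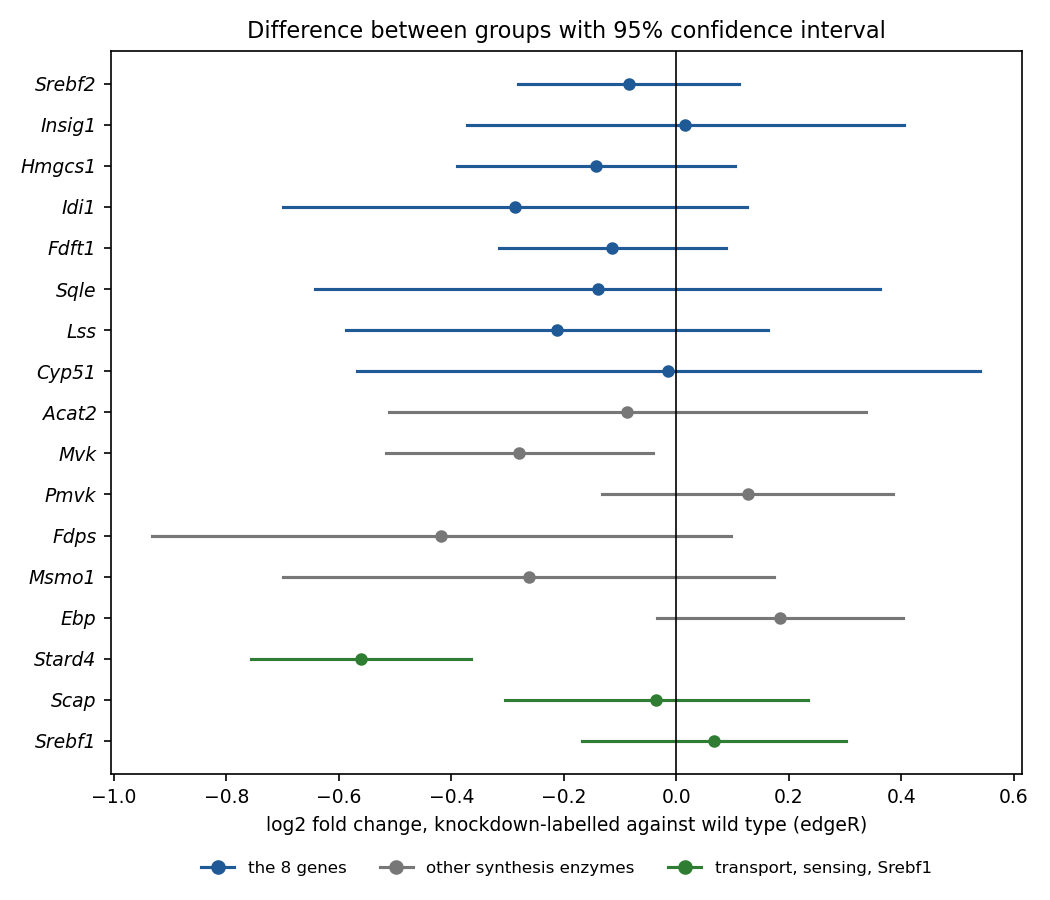
Log2 fold change of the knockdown-labelled against the wild type lungs (points, horizontal axis) with its 95% confidence interval (lines) from edgeR for the 8 genes (blue), 6 other synthesis enzymes named in the text (grey) and 3 genes of transport, sensing and fatty acid control (green). The intervals of all 8 genes include 0, and those of Mvk (-0.52 to -0.04) and Stard4 (-0.76 to -0.37) lie below it.

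Neighbouring lipid pathways gave 0 calls in edgeR as well. Of 10 tested genes of efflux, liver X receptors and esterification 7 were positive (median 0.17), and Soat1, which esterifies cholesterol for storage, had 312 ± 58.9 against 235 ± 30.6 CPM without overlap (edgeR adjusted p = 0.266). Its log2 fold change of -0.41 became 0.02 with the heart muscle level as a covariate, a level that did not overlap between the groups and cannot be cleanly separated from the label. The liver X receptor gene Nr1h3 had 39.6 ± 3.80 against 32.1 ± 4.53 CPM (edgeR adjusted p = 0.283), and Apoe, the apolipoprotein that carries exported cholesterol, had 397 to 490 CPM in 5 lungs and 1009 CPM in knockdown-labelled replicate 1. Of 9 genes of the isoprenoid branches, which draw on the same intermediates, Pggt1b, a subunit of a geranylgeranyl transferase, had 98.6 ± 3.26 against 84.6 ± 6.15 CPM (edgeR adjusted p = 0.227). Of 10 fatty acid synthesis genes the median was -0.17, with Acly, which makes acetyl-CoA in the cytosol, at 265 ± 13.8 against 229 ± 4.80 CPM (edgeR adjusted p = 0.213), and Srebf1, the sister gene of Srebf2, at 159 ± 17.7 against 166 ± 10.6 CPM (edgeR adjusted p = 0.789). Scd1, a fatty acid desaturase, had 1377, 1580 and 868 CPM against 522, 869 and 992 CPM (edgeR adjusted p = 0.297). The mean of the fatty acid genes did not follow the enzymes of cholesterol synthesis over the 6 lungs (r = 0.15).

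Cell type markers varied between the same lungs. The sum of 15 heart muscle genes was 578 to 3453 CPM in wild type and 4106 to 14001 CPM in the knockdown-labelled lungs, and the sums of alveolar type 1 genes (6370 to 7189 against 4077 to 5182 CPM), endothelial genes (2691 to 3038 against 1844 to 2336 CPM) and lipofibroblast and matrix fibroblast genes (4367 to 4848 against 3065 to 3481 CPM) were lower in the knockdown-labelled lungs without overlap. Negative log2 fold changes were met in 10 of 10 markers of each of these lists and positive ones in 15 of 15 heart muscle genes. The 10 alveolar type 2 genes summed to 15366 to 19404 against 15797 to 20024 CPM and the 10 proliferation genes to 551 to 781 against 406 to 764 CPM. The ranges also overlapped for smooth muscle (1290 to 1561 against 1015 to 1562 CPM), macrophage (651 to 847 against 718 to 786 CPM) and erythroid genes (3198 to 3770 against 3250.2 to 3545 CPM). Wild type replicate 2 and knockdown-labelled replicate 1 had the 2 highest alveolar type 2 sums, 19404 and 20024 CPM, and the 2 lowest proliferation sums, 551 and 406 CPM. The r of the mean of the 6 enzymes was -0.68 with the mean of the type 2 markers, 0.69 with proliferation, 0.66 with smooth muscle, -0.63 with erythroid genes and -0.19 with heart muscle. For the remaining lists it was -0.40 with macrophage, 0.39 with endothelial, 0.27 with alveolar type 1 and 0.13 with lipofibroblast and matrix fibroblast genes. The erythroid mean on the centred scale was also highest in wild type replicate 2 and knockdown-labelled replicate 1, at 0.50 and 0.46. Their erythroid sums did not both stand high: wild type replicate 2 had 3770 CPM and knockdown-labelled replicate 1 had 3250.2 CPM, the lowest of its group. No marker of these lists was at 0 in any library. The part of cell composition in the spread of the 8 genes was not tested.

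The genes whose pattern over the 6 lungs was most like the mean of the 8 were Trim2 (r = 0.986), Syna (0.978), Fbxl2 (0.974), Htra2 (0.970) and Alg14 (0.970), out of 14693 compared outside the pathway lists. Trim2, a ubiquitin ligase gene, had 79.6, 62.5 and 73.7 CPM in wild type and 62.8, 66.8 and 72.4 CPM in the knockdown-labelled lungs. With 6 points and this many genes, 16 had an r of at least 0.95.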

How the data were processed

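Whole-lung poly(A) RNA of 6 samples was sequenced, and 1 deposited table was used. Per the file headers it holds, for each library, the authors' raw count per gene and the FPKM made from it with the exonic length. Tools listed in the submitters' processing notes are HISAT2 2.0.1, HTSeq 0.6.1 and cutadapt 1.9.1, with no role or setting. The deposited FPKM values were recomputed from counts, totals and lengths and differed by at most 0.005. The table's coordinates equal those of GENCODE M21 for 1457 of 52083 shared genes, so no build is named for them and promoter windows come from RefSeq GRCm38.p6 alone. No row lacked a gene.

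Total counts were 14383415 to 19262837 per library, so 3 counts are 0.156 to 0.209 CPM. Lungs of a group differed by more than counting noise (chi-square per degree of freedom 13.2 to 44.4), and each was counted once. edgeR 4.0.16 in R 4.3.3 (filterByExpr, 17728 genes kept, TMM, quasi-likelihood, group as the only term) gave two-sided p-values adjusted by Benjamini-Hochberg over all genes tested, called under 0.05. Each standard error is the size of the log2 fold change divided by the root of F. Alternatives used DESeq2 1.42.0 and limma 3.58.1. The fits were tested on simulated data. An exact permutation test of 3 against 3 lungs cannot go below p = 0.1 and was not used.

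The 8 genes and all lists were chosen with earlier results of these data known. Genes named are the 8, Prmt5, Scap and Srebf1, up to 4 with the smallest p in each pathway list, and the 5 most correlated with the mean of the 8, except some that are not reported here. Insig2, Msmo1, Acat2 and Pmvk were added after their values were seen. Mean marker levels and correlations use log2 CPM with a prior count of 2.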

Additional observations from a re-analysis of the deposited data

How the results depend on the processing

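None of the 8 genes was called under any of the 16 alternatives, and their median log2 fold change stayed negative, from -0.22 without wild type replicate 2 to -0.075 with only genes of mean FPKM of at least 5, which leaves out Idi1 and Lss. Hmgcs1, Idi1, Fdft1 and Lss stayed negative wherever tested. Cyp51 turned positive at 0.01024 with the FPKM filter, 0.001167 and 0.002369 with limma on log2(FPKM + 1) and log2(FPKM + 0.1), and ranged from -0.2072 to 0.1649 when 1 lung was left out. On leaving out 1 lung Insig1 ranged from -0.1361 to 0.1602 and Sqle from -0.3699 to 0.0329. With embryo sex, read from Xist and Ddx3y, as a covariate Insig1 was -0.1221, and with the heart muscle level as a covariate Srebf2 was 0.06551, Soat1 0.01965 and Insig1 0.3061, its highest value over the alternatives. The heart muscle level did not overlap between the groups, so the values from that fit cannot be cleanly separated from the label. The count of genes called over the table was far less stable than 6: 854 with DESeq2, 81 with no filter on low counts, 15 with robust quasi-likelihood, 3 with limma on log2(FPKM + 0.1), 2 with the FPKM filter, 1 with the heart muscle covariate, 0 with the sex covariate (2524 at an unadjusted p under 0.05) and 0 to 17 without 1 lung, the 17 without wild type replicate 3. Of the fits without 1 lung, a count of 0 came with wild type replicate 1, wild type replicate 2, knockdown-labelled replicate 1 or knockdown-labelled replicate 2 left out, where 1663, 2082, 3287 and 2884 genes had an unadjusted p under 0.05. Pathway genes called were 2 with DESeq2, Stard4 among them, and 1 with no filter (Stard4, adjusted p = 0.0437), and the cause of these changes was not tested. No paired analysis was possible because the labels give the groups no shared replicate numbers. Idi1, with 106 to 162 counts, is limited most by depth.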
